A study of Mus musculus with 2 samples.

Results

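The mitotic spindle and kinetochore genes described here are 43 genes of the 31053 in the files, taken by their symbols from a fixed list. Each symbol matched 1 gene. The cells were splenocytes of mice bearing AE9a leukemia, a mouse model of acute myeloid leukemia in which a shortened AML1-ETO fusion protein is the driver. They had been sorted as GFP+ Lin− c-Kit+ cells and profiled with 10x Genomics 3′ V3 single-cell RNA sequencing. The study asked how these leukemia cells change when 1 allele of Usp18 is deleted. The leukemia cells of both groups carried Usp18+/f, a tamoxifen-inducible Cre and AE9a with GFP from a retroviral vector. The leukemia cells came from fetal liver cells and had been transplanted into irradiated C57BL/6 recipients. Mice were of either sex and 8 to 12 weeks old, per the study's methods. In the group labelled Usp18+/f, sick recipients received oil. In the group labelled Usp18+/Δ they received tamoxifen. Cells were taken 3 days after the first injection, and cells of 3 mice were pooled into 1 library per group. Tamoxifen, Cre activity and the deletion therefore cannot be told apart from each other or from the library. Since each group is a single library, the spread between replicates is unknown and no test was run. Every interval below is a 95% interval that covers counting error only.

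Mitosis is run by a small set of proteins made late in the cell cycle. Cyclin-dependent kinase activity, supplied by A- and B-type cyclins, drives entry into mitosis. Kinetochores assemble on centromeres and bind spindle microtubules, and the spindle checkpoint holds the anaphase-promoting complex (APC/C) inactive until every chromosome is attached. The APC/C then marks cyclin B and securin for destruction, and the central spindle directs cytokinesis. Most of these genes are transcribed in G2 and mitosis, and acute myeloid leukemia cells use them as any dividing cell does.

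The targeted gene was examined first. Usp18, a negative regulator of interferon signaling, was at 5.69 CPM (5.09 to 6.34) in the Usp18+/f-labelled library and at 24.1 CPM (22.9 to 25.4) in the Usp18+/Δ-labelled library. CPM are unique molecular identifiers (UMIs) of a gene per 1000000 UMIs of the library. Usp18 mRNA thus goes against the label, and the library names below are those of the labels only. A 3′ tag may lie outside the deleted part, and the sources used here do not give which exons are floxed, so this gene does not check the deletion. Isg15, an interferon target whose protein product USP18 removes from other proteins, was at 21.1 CPM (19.9 to 22.3) and 115 CPM (112 to 118) in the same order. Interferon also induces Usp18 itself. After filtering, 6561 and 7073 cells remained, with medians of 8575 and 8021 UMIs, and 11 cell barcodes occurred in both libraries. Kit, which encodes the sort marker c-Kit, was at 96.6 and 102 CPM. Of the mouse genes named in the fusion, Runx1t1 (ETO) was at 23.6 and 33.7 CPM and Runx1 (AML1) at 567 and 539 CPM. The fusion itself came from a retroviral vector. Whether any of these 3′ tags stem from it was not tested, so they do not measure the driver. Ptprc (CD45), which leukocytes carry, was near 0, with 9 and 14 UMIs. Markers of macrophages, T cells and B cells summed to at most 6.01 CPM per list. Neutrophil markers summed to 0.0344 and 22.5 CPM, with 5 and 1 of the 6 genes at 0. Mast cell and basophil markers to 805 and 974 CPM, and erythroid markers to 4176 and 4322 CPM. Several of these transcripts were found in most cells and others in few: Ms4a2 was found in 93.5% and 94.2% of kept cells, Hba-a1 in 84.8% and 78.1%, and Klf1 in 68.2% and 61.9%, but Cpa3 in 24.98% and 33.5%. The part of these marker levels in the results was not tested.

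The members made up 0.489% of all UMIs in the Usp18+/f-labelled library and 0.429% in the Usp18+/Δ-labelled library. In sum they were at 4893 CPM and 4294 CPM. To compare single cells at equal depth, 3000 UMIs were drawn from each cell, and the 457 and 350 cells with fewer were set aside. This is called thinning below. A cell then held a median of 7 member UMIs in the Usp18+/f-labelled library and 5 in the other. The distribution was wide: at the 90th percentile cells held 32 and 30 member UMIs, and the highest held 67 and 66. No member UMI was found in 12.6% and 16.4% of the thinned cells. A median of 6 and 4 different members was detected per thinned cell, and at most 30 and 31 of the 43.

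Levels of single members spanned from 545 CPM for Mki67 to 20.3 CPM for Ttk in the Usp18+/f-labelled library. In the Usp18+/Δ-labelled library the same genes marked the ends, at 500 CPM and 18.2 CPM. A 3′ UMI marks 1 captured RNA molecule whatever its length, so these levels can be set side by side without a length correction, although capture may differ between transcripts. Only Ttk had a mean below 20 CPM, the minimum used for counts over genes. Per cell, without thinning, the 42 members above the minimum ranged from 0.221 to 4.84 UMIs in the Usp18+/f-labelled library, with a median of 0.809. In the other library the range was 0.189 to 4.20 UMIs, with a median of 0.633.

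**Figure D1:**
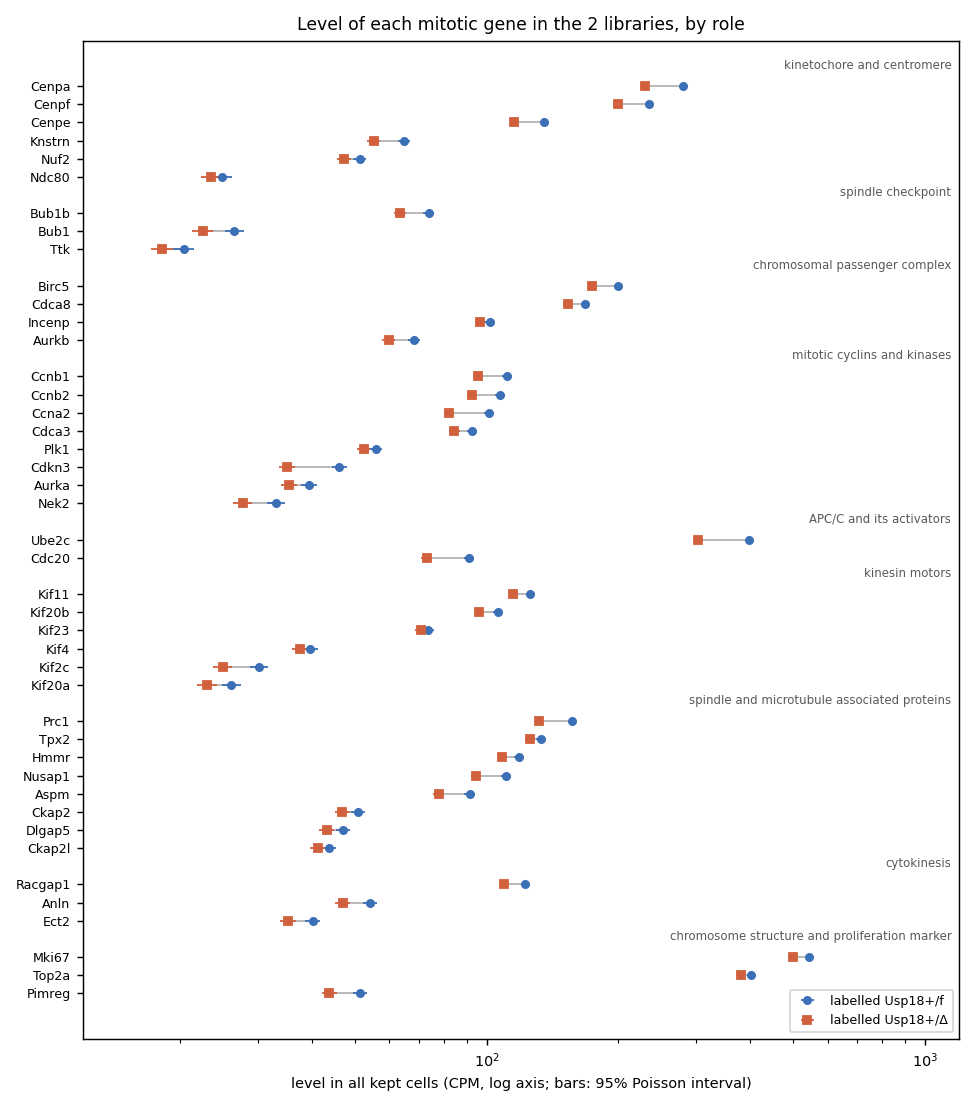
Level of each of the 43 members in CPM on a log axis, grouped by role, in the Usp18+/f-labelled library (circles) and the Usp18+/Δ-labelled library (squares), with 95% Poisson intervals. Mki67, Top2a and Ube2c lie highest and Ttk lowest, and every square lies to the left of its circle.

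The 6 kinetochore and centromere genes summed to 792 CPM in the Usp18+/f-labelled library and 672 CPM in the Usp18+/Δ-labelled library. Cenpa (ENSMUSG00000029177, chromosome 5, 30666777 to 30674830, mm10) encodes the histone H3 variant that marks centromeres. It was at 281 CPM (277 to 286) and 230 CPM (227 to 234), a log2 ratio of the second library over the first of -0.29 (-0.32 to -0.26). Cenpf (ENSMUSG00000026605, chromosome 1, 189640606 to 189688086) encodes a large protein of the outer kinetochore that accumulates in G2. Its level was 234 CPM (231 to 238) and 199 CPM (196 to 203), a log2 ratio of -0.23 (-0.27 to -0.20). Cenpe, the kinetochore kinesin that carries chromosomes to the spindle equator, was at 136 and 116 CPM. Ndc80 and Nuf2 form part of the complex that grips microtubule ends. Ndc80 (ENSMUSG00000024056, chromosome 17, 71496100 to 71526857) was at 24.9 CPM (23.6 to 26.2) and 23.5 CPM (22.3 to 24.8). Its log2 ratio of -0.08 (-0.19 to 0.03) was not distinguishable from 0 at this depth. Nuf2 was at 51.3 CPM (49.5 to 53.2) and 47.4 CPM (45.6 to 49.2), a log2 ratio of -0.11 (-0.19 to -0.04). Knstrn, a partner of astrin at the kinetochore, was at 64.8 and 55.2 CPM.

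The 3 spindle checkpoint genes were at 121 and 104 CPM in sum, with Ttk and Bub1 among the lowest members and Bub1b in the middle. Bub1, a checkpoint kinase, was at 26.6 and 22.5 CPM. Bub1b, which encodes the APC/C inhibitor BubR1, was at 73.7 and 63.5 CPM. Ttk, the kinase that starts checkpoint signaling at unattached kinetochores, was at 20.3 CPM (19.2 to 21.5) and 18.2 CPM (17.1 to 19.3).

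The chromosomal passenger complex corrects faulty attachments and later moves to the central spindle. Its 4 genes summed to 537 and 483 CPM. Birc5 (survivin) was at 199 and 174 CPM and Cdca8 (borealin) at 168 and 153 CPM. Incenp, the scaffold of the complex, was at 102 CPM (99.0 to 104) and 96.4 CPM (94.0 to 99.0). Its log2 ratio of -0.07 (-0.13 to -0.02) was one of the 5 nearest to 0. The kinase gene Aurkb was at 68.2 and 59.7 CPM, the lowest level of the complex.

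Of the 8 genes grouped as mitotic cyclins and kinases, Ccnb1 and Ccnb2 were expressed highest. Ccnb1 (cyclin B1) was at 111 CPM (109 to 114) and 95.7 CPM (93.2 to 98.2), a log2 ratio of -0.22 (-0.27 to -0.17). Ccnb2 (cyclin B2) was at 107 CPM (105 to 110) and 92.6 CPM (90.2 to 95.1), a log2 ratio of -0.21 (-0.27 to -0.16). Ccna2 (ENSMUSG00000027715, chromosome 3, 36564865 to 36572150) encodes cyclin A2, which acts in S phase and G2. It was at 101 CPM (98.5 to 104) and 82.1 CPM (79.8 to 84.4), a log2 ratio of -0.30 (-0.36 to -0.25). The kinase genes lay lower. Plk1, the polo-like kinase that acts from mitotic entry on, was at 55.8 and 52.4 CPM. Aurka, the spindle pole kinase, was at 39.3 and 35.4 CPM. Nek2, a kinase of centrosome separation, was at 33.1 and 27.7 CPM. Cdca3, a regulator of mitotic entry that is neither a cyclin nor a kinase, was at 92.8 and 84.4 CPM. Cdkn3 (ENSMUSG00000037628, chromosome 14, 46760541 to 46771669) is also neither a cyclin nor a kinase but encodes a phosphatase of cyclin-dependent kinases. It had the lowest log2 ratio of all members, -0.40 (-0.48 to -0.31), with 46.1 CPM (44.4 to 47.9) and 35.0 CPM (33.6 to 36.6).

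Both genes of the APC/C group differed more than most. Ube2c (ENSMUSG00000001403, chromosome 2, 164769898 to 164778822) encodes the ubiquitin-conjugating enzyme of the APC/C. It was at 396 CPM (391 to 401) and 304 CPM (300 to 309), a log2 ratio of -0.38 (-0.41 to -0.35). Cdc20 (ENSMUSG00000006398, chromosome 4, 118432901 to 118437352) encodes the activator that starts anaphase. It was at 91.0 CPM (88.6 to 93.5) and 73.0 CPM (70.9 to 75.2), a log2 ratio of -0.32 (-0.38 to -0.26). The sum of both genes had a log2 ratio of -0.37 (-0.40 to -0.34), the lowest of the 9 roles.

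The 6 kinesin motors summed to 401 and 367 CPM. Kif11, the motor that pushes spindle poles apart, was at 126 and 115 CPM. Kif20b, a motor of late cytokinesis, was at 106 and 96.0 CPM. Kif23, a motor of the central spindle, was at 73.5 CPM (71.3 to 75.7) and 70.8 CPM (68.7 to 73.0). Its log2 ratio of -0.05 (-0.12 to 0.01) was the nearest to 0 of all members. Kif4, a chromosome-arm kinesin, was at 39.5 CPM (37.9 to 41.1) and 37.4 CPM (35.9 to 39.0), a log2 ratio of -0.08 (-0.16 to 0.01). Neither difference was detectable at this depth. Kif2c, which removes tubulin from microtubule ends, was at 30.2 and 24.98 CPM, a log2 ratio of -0.27 (-0.37 to -0.17). Kif20a, which brings passenger proteins to the central spindle, was at 26.2 and 23.0 CPM.

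Among the 8 spindle and microtubule associated genes, Prc1, which bundles central spindle microtubules, was highest at 156 and 132 CPM. Tpx2, the activator of Aurora A on the spindle, was at 133 and 125 CPM. Hmmr, a spindle pole protein, was at 118 and 109 CPM. These 3 differed in how far apart the libraries lay, with log2 ratios of -0.25 for Prc1, -0.08 for Tpx2 and -0.12 for Hmmr. Nusap1, which crosslinks spindle microtubules, was at 111 and 94.3 CPM. Aspm, a protein of microtubule minus ends at the poles, was at 91.4 and 77.7 CPM. The remaining genes of this role were near 50 CPM or below. Ckap2 was at 50.9 and 46.9 CPM, Dlgap5 (HURP, a stabiliser of kinetochore fibres) at 47.1 and 43.2 CPM, and Ckap2l at 43.7 and 41.2 CPM.

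The 3 cytokinesis genes summed to 217 and 191 CPM. Racgap1, which with Kif23 forms the centralspindlin complex, was at 122 and 109 CPM. Anln (anillin), a scaffold of the contractile ring, was at 54.2 CPM (52.3 to 56.1) and 46.9 CPM (45.2 to 48.7), a log2 ratio of -0.21 (-0.28 to -0.13). Ect2, the exchange factor that activates RhoA at the division site, was at 40.1 and 35.2 CPM.

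The last role held the genes with the most UMIs. Mki67 (ENSMUSG00000031004, chromosome 7, 135689784 to 135716361) encodes the Ki-67 protein that coats mitotic chromosomes. It was at 545 CPM (539.5 to 551) and 500 CPM (494 to 505), a log2 ratio of -0.13 (-0.15 to -0.10). Top2a (ENSMUSG00000020914, chromosome 11, 98992943 to 99024189) encodes the topoisomerase that untangles sister chromatids. It was at 402 CPM (397 to 407) and 381 CPM (376 to 386), a log2 ratio of -0.08 (-0.10 to -0.05). Pimreg, a PICALM-interacting mitotic regulator, was at 51.4 and 43.7 CPM.

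To order the members between G2 and mitosis, cells were placed by genes that are not members. Scores were built from 48 S-phase, 28 G2 and 23 M reference genes that reached 5 CPM, and each of the 6104 and 6723 cells with at least 3000 UMIs received an angle. At 0 degrees the S score is high, and at 90 degrees the G2 and M scores are high. Cells were cut into 20 bins of equal size along the angle, and the centre of a member is the circular mean of its CPM over the bins. The summed members rose from 488 CPM in the bin at 214 degrees, where both scores were low, to 10637 CPM in the bin at 96.3 degrees. In UMIs per cell this was 2.87 and 133. The members are G2 and mitosis genes by their roles, so a rise toward 90 degrees restates what they are. Their order within it does not.

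Centres spanned 42.0 degrees over the 42 members above the minimum, from 66.2 to 108 degrees. The earliest were Ndc80 at 66.2, Anln at 67.3, Mki67 at 68.7 and Top2a at 69.6 degrees, with Ttk, below the minimum, at 68.8 degrees. Aurkb at 70.5, Nuf2 at 71.9 and Incenp at 72.9 degrees followed. The latest were Ccnb2 at 108, Cenpa at 104, Cdkn3 at 102, Cdc20 at 97.4 and Cenpf at 94.2 degrees. Mki67 and Top2a thus sat early, and the B-type cyclins, the centromeric histone and Cdc20 late. Kinetochore genes lay at both ends, with Ndc80 and Nuf2 early, Cenpe in between at 88.9 degrees, and Cenpa and Cenpf late. Neighbours in the order often lay within 1 degree of each other, which is under 1.87 degrees, the median size of the shift between libraries.

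The highest bin gave a coarser order that did not always follow the centres. Ndc80, the earliest by centre, was highest at 96.3 degrees, and Anln and Ttk at 106 degrees. Mki67, Top2a, Nuf2, Incenp and Kif11 were highest in the bin at 85.5 degrees. Of the other members above the minimum, 21 were highest at 96.3 degrees and 10 at 106 degrees. Cenpa, Cdkn3, Cdc20, Ccnb2, Nek2 and Knstrn were highest in the bin at 125 degrees, where the S score was already negative and the G2/M score was falling. Members also differed in how far they fell outside G2/M. Nusap1 went from 270 CPM in its highest bin to 1.33 CPM in its lowest. Ccnb2 went only from 205 to 34.2 CPM, and Kif23 from 154 to 20.9 CPM. Cenpf went from 669 to 8.22 CPM.

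**Figure D2:**
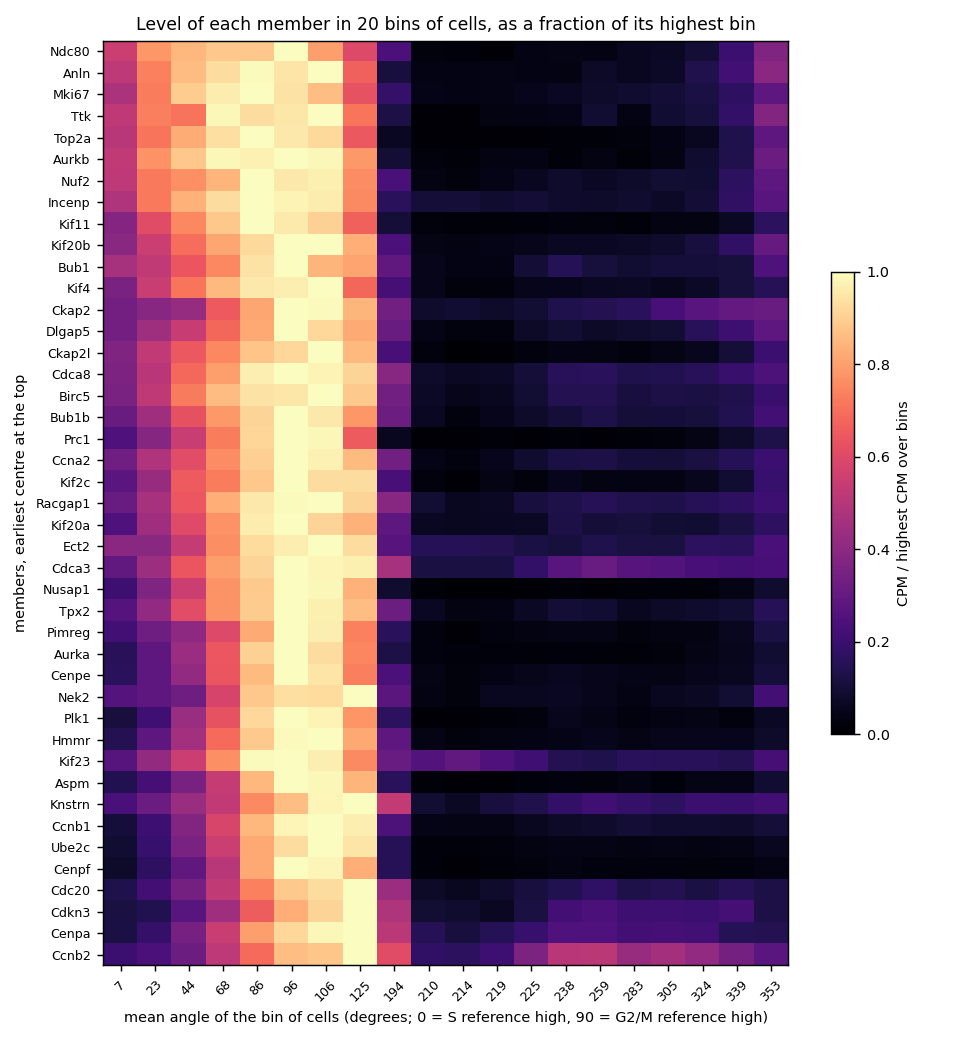
Level of each member (rows, earliest centre at the top) in 20 equal bins of cells along the angle (columns, labelled with their mean angle in degrees and not spaced to scale), as a fraction of the member's own highest bin, libraries together. Rows at the top are already bright in bins from 7 to 44 degrees, whereas Cdc20, Cdkn3, Cenpa and Ccnb2 at the bottom are brightest at 125 degrees.

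The order was alike in both libraries. Across the 42 members the centres of the libraries had a Pearson's r of 0.96 and a Spearman's rho of 0.98, as a description over genes that share the same cells, reference genes and bins. Centres were earlier in the Usp18+/Δ-labelled library for 32 of the 42 members. The median difference over all 42 was -1.22 degrees. Ccnb2 shifted most, from 117 degrees to 100 degrees, but it was also the member least concentrated along the angle.

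A second measure looked only at cells high in G2/M reference genes. The highest-scoring 1 of every 3 cells, 2173 and 2103 cells, were divided into 3 equal groups by M score minus G2 score. The mitosis-over-G2 index of a member is the log2 of its CPM in the late group over the early group. The index was above 0 for 37 of the 42 members, with a median of 0.46, or 0.22 when the scores were built from thinned cells. Reference genes measured with the gene itself left out of the scores had a median of 0.13 for the G2 list and 0.42 for the M list. An index of 0 is thus not the midpoint between G2 and mitosis, and late-group cells were also deeper, with median UMIs of 12132 and 11549 against 11285 and 10465 in the early group.

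At the low end of the index lay Ndc80 at -0.17 (-0.32 to -0.02), Mki67 at -0.16 (-0.20 to -0.13) and Anln at -0.06 (-0.16 to 0.04). Top2a at -0.01 (-0.05 to 0.02) and Nuf2 at -0.0041 (-0.11 to 0.10) came next. The sign was not firm for any of the 5. When the cells were all those above the median score, Mki67 was at 0.01, Anln at 0.08, Top2a at 0.12 and Nuf2 at 0.17, and Ndc80, at -0.05 there, was at 0.24 in cells with at most 5% mitochondrial UMIs. Mki67 was at 1046 CPM in the early group, 945 CPM in the middle group and 934 CPM in the late group. Top2a was at 787, 738 and 780 CPM in the same groups. At the high end lay Cdkn3 at 1.23 (1.10 to 1.37), Cenpf at 1.02 (0.98 to 1.07) and Ccnb1 at 1.01 (0.94 to 1.09). Cdc20 at 1.01 (0.92 to 1.10) and Cenpa at 0.99 (0.93 to 1.04) completed the highest 5. With scores from thinned cells the same 5 were lower, at 0.70 for Cdkn3, 0.52 for Cenpf, 0.60 for Ccnb1, 0.49 for Cdc20 and 0.56 for Cenpa. Cenpf was at 298, 459 and 606 CPM from the early to the late group, and Cdkn3 at 39.0, 68.9 and 91.6 CPM. Cenpa was at 280, 428 and 554 CPM, and Cdc20 at 93.3, 150 and 188 CPM. For Ccnb1 the levels were 133, 203 and 268 CPM. The intervals of Cenpf, Ccnb1, Cdc20 and Cenpa overlap, so their order among themselves was not resolved.

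**Figure D3:**
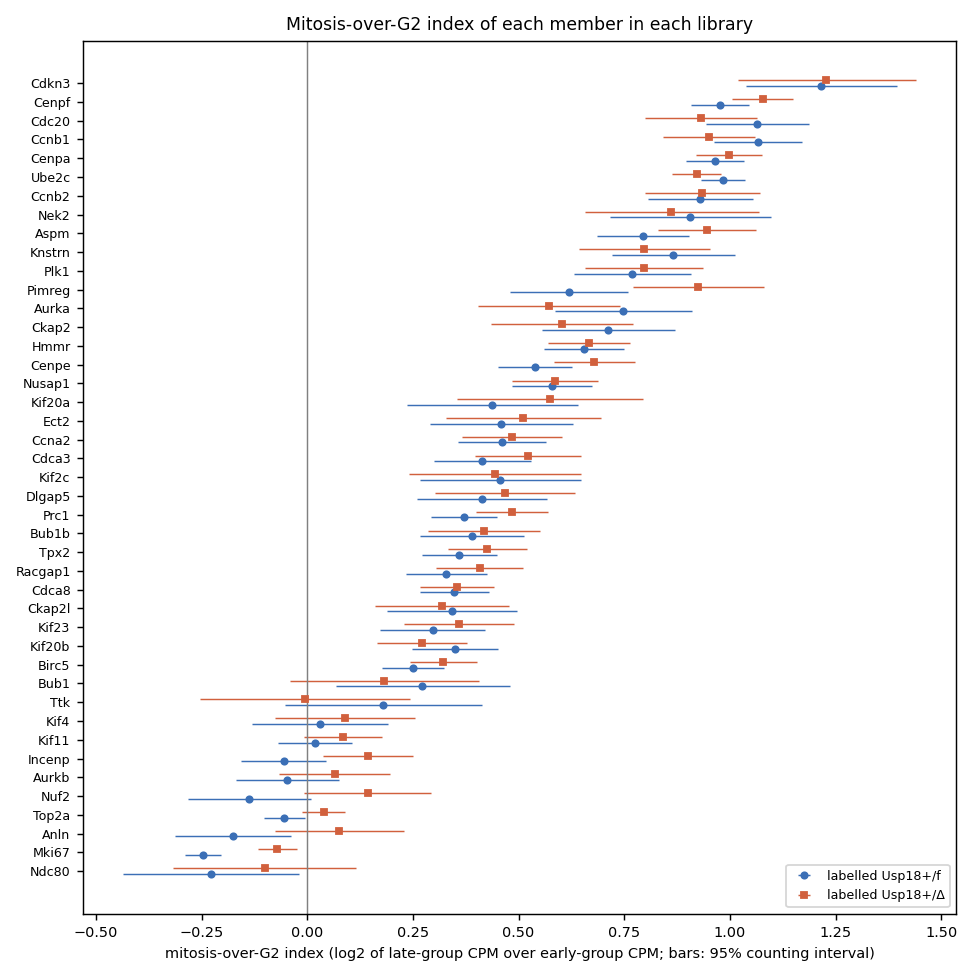
Mitosis-over-G2 index (log2, with 95% counting intervals) of each of the 43 members in the Usp18+/f-labelled library (circles) and the Usp18+/Δ-labelled library (squares), sorted by the index over both. Cdkn3 is highest in both libraries, and Mki67 and Ndc80 lie below 0 in both.

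Members with the same role could differ in the index. Within the kinetochore group it ran from Ndc80 to Cenpf, the whole width of the scale but for Cdkn3. Within the cyclins, Ccna2 was at 0.48 (0.40 to 0.56), below Ccnb2 at 0.94 (0.84 to 1.03) and Ccnb1. All 4 passenger genes were at 0.35 or below, from 0.01 (-0.08 to 0.10) for Aurkb to 0.35 (0.29 to 0.41) for Cdca8. Aurka at 0.66 (0.55 to 0.78) and Plk1 at 0.78 (0.68 to 0.88) lay above Aurkb. Of the motors, Kif20a was highest at 0.50 (0.35 to 0.65) and Kif11 lowest at 0.05 (-0.01 to 0.11). Between libraries the index had a Pearson's r of 0.96 over the 42 members. It was higher in the Usp18+/Δ-labelled library for 31 of them, and the median difference over all 42 was 0.05. Mki67 was at -0.25 (-0.29 to -0.20) in the Usp18+/f-labelled library and -0.07 (-0.12 to -0.03) in the other. Pimreg was at 0.62 (0.48 to 0.76) and 0.93 (0.77 to 1.08).

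Promoters were compared at the ends of this order, since genes of G2 and mitosis are known to share promoter elements. The cell cycle genes homology region (CHR) and CCAAT boxes are the usual ones. The letters TTTGAA and CCAAT were searched on both strands from 250 bases before to 50 bases after the gene start in RefSeq sequences on GRCm38.p6, the assembly of mm10. Of the 43 members, 36 matched a gene of that table, with 38 windows. Aurkb, Ccna2, Dlgap5, Incenp, Kif20a, Pimreg and Tpx2 did not match. TTTGAA occurred in 78.9% of these windows and in 17.9% of all 32851 windows. CCAAT occurred in 78.9% and 37.4%, and both together in 68.4% and 6.95%. The 200 bases before the start are shown for the 2 members of highest and the 2 of lowest index that have a window, in lower case with matches to either motif in its own or its reverse complement form in capitals.
Cdkn3 (chr14:46760341-46760540, plus strand): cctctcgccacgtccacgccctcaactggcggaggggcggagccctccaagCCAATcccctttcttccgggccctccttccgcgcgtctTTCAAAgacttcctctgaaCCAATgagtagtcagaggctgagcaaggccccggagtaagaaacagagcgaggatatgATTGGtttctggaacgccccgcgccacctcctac
Cenpf (chr1:189688087-189688286, minus strand): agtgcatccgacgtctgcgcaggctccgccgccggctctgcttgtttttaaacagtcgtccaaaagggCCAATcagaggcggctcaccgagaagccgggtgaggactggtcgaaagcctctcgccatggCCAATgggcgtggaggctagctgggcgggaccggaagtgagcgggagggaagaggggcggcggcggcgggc
Ndc80 (chr17:71526858-71527057, minus strand): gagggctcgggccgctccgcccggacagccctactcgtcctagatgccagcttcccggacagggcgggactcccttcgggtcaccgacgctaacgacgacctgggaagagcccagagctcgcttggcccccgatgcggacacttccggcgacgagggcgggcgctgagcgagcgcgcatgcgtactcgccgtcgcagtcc
Mki67 (chr7:135716380-135716579, minus strand): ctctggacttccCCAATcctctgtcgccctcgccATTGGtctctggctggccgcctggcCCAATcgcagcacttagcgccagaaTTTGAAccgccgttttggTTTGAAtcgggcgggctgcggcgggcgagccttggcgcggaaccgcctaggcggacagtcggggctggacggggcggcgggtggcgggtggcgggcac
Mki67 had 2 TTTGAA and 3 CCAAT matches in this stretch, and Cdkn3 had 1 and 3. Cenpf had 2 CCAAT matches there, and its TTTGAA lay just past the start, at bases 3 to 8. Ndc80 had no match in the stretch and 1 TTTGAA at bases 30 to 35 after the start. Of the members above the minimum level, the 27 with TTTGAA had a median index of 0.45 (range -0.17 to 1.23) and the 8 without it 0.60 (range -0.0041 to 1.01). The 27 with CCAAT had a median of 0.61 (range -0.16 to 1.23) and the 8 without it 0.30 (range -0.17 to 0.84). The ranges overlap for both motifs. These are matches of letters, not measured binding.

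Between the libraries, the members were lower in sum in the Usp18+/Δ-labelled library, by a log2 ratio of -0.19 (-0.20 to -0.18). All 42 members above the minimum had a log2 ratio below 0, and 49.8% of the 5987 genes above the minimum did. Ttk, at -0.16 (-0.28 to -0.04), was below 0 too. Their median was -0.19, against 0.00075 for all genes, and they ranged from -0.40 to -0.05. A log2 ratio at or below -0.25 was reached by 7 of the 42 and by 1.65% of all genes. The 7 were Cdkn3, Ube2c, Cdc20, Ccna2, Cenpa, Kif2c and Nek2, with Nek2 just inside at -0.253 and Prc1 just outside at -0.247. No member reached a log2 ratio of -0.50. Members were counted in the same cells, so they are not independent of one another. The number past -0.25 changed with the averaging: when every cell had equal weight, 33 members were past it, beside 3.34% of all genes, and the median was -0.33.

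The difference between libraries was larger for members of higher index. The 21 members of lower index had a median log2 ratio of -0.13, and 1 of them, Kif2c, was past -0.25. The 21 of higher index had a median of -0.23, and 6 were past it. Over the 42 members, index and log2 ratio had a Pearson's r of -0.64 and a Spearman's rho of -0.61. This is a description over genes of the same 2 libraries, and the index was measured in part of the cells that also gave the ratio. With the index of the Usp18+/f-labelled library alone, r was -0.62. With the log2 ratios after cells were weighted alike along the angle in both libraries, r was -0.40 and rho -0.33.

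**Figure D4:**
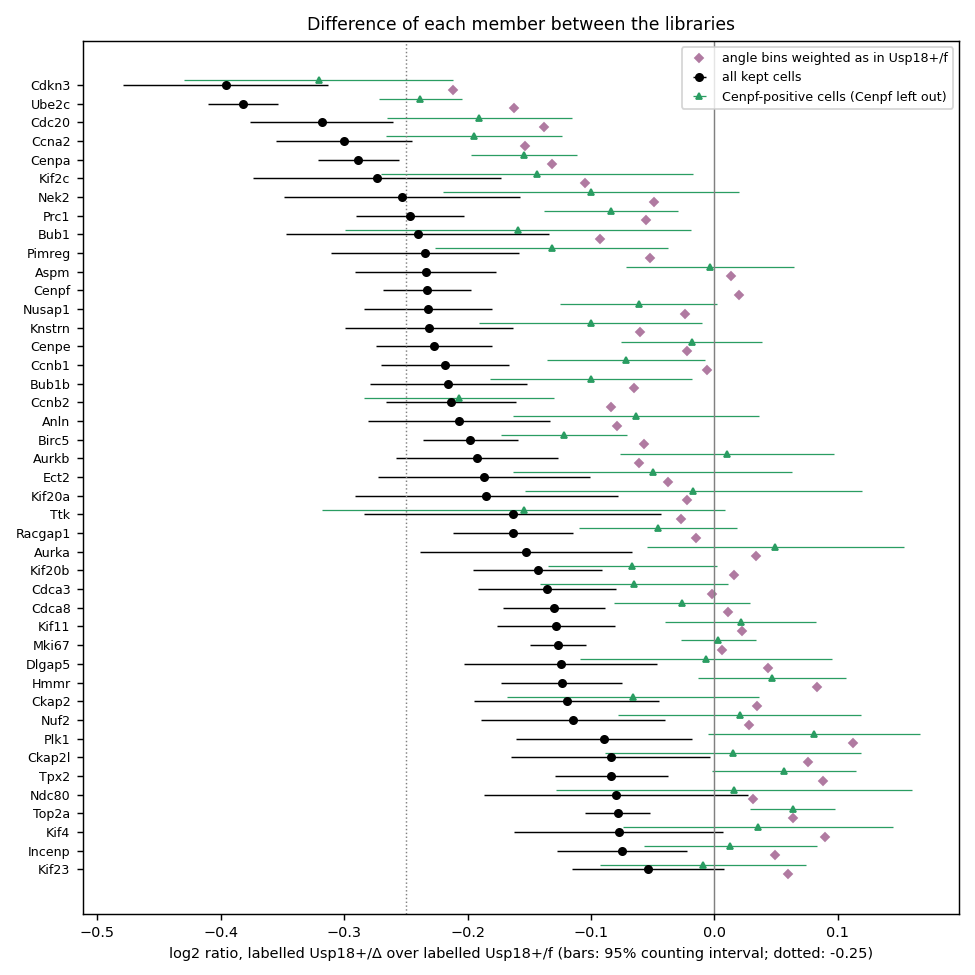
Log2 ratio of the Usp18+/Δ-labelled library over the Usp18+/f-labelled library for each member in all kept cells (circles) and in Cenpf-positive cells (triangles, Cenpf left out), with 95% counting intervals, and with angle bins weighted as in the Usp18+/f-labelled library (diamonds). All circles lie below 0, from -0.40 for Cdkn3 to -0.05 for Kif23, whereas triangles and diamonds lie on both sides of 0.

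Cells that express Cenpf were then counted. After thinning to 3000 UMIs, 1707 of 6104 cells, 28.0% (26.8 to 29.1), held a Cenpf UMI in the Usp18+/f-labelled library. In the Usp18+/Δ-labelled library it was 1582 of 6723 cells, 23.5% (22.5 to 24.6). The log2 ratio of the shares was -0.25 (-0.33 to -0.16). Without thinning the shares were 41.6% and 35.5%. In the bin where the members were lowest, 1.90% and 2.38% of thinned cells held a Cenpf UMI, which is taken as the background of this measure. Cells of that bin had a median of 5636 UMIs, against 11538 and 10802 for Cenpf-positive cells. Along the angle the share of Cenpf-positive cells reached 80.8% in the bin at 96.3 degrees. At 3 or more Cenpf UMIs, 6.67% (6.05 to 7.32) and 6.01% (5.45 to 6.60) of cells remained, a difference not detectable at this depth.

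Within Cenpf-positive cells the libraries lay much closer. Cenpf itself chose these cells and is left out. The other 42 members summed to 8522 CPM in the Usp18+/f-labelled library and 8182 CPM in the Usp18+/Δ-labelled library, a log2 ratio of -0.06 (-0.07 to -0.05). Their median was -0.06. A log2 ratio below 0 was found for 29 of the 42, beside 49.6% of all genes, and 13 were above 0. Only Cdkn3 was at or below -0.25, beside 2.31% of all genes. Cdkn3 was at 83.5 and 66.9 CPM in these cells, a log2 ratio of -0.32 (-0.43 to -0.21). Ube2c was at 829 and 702 CPM, or -0.24 (-0.27 to -0.20), and Ccnb2 at 161 and 140 CPM, or -0.21 (-0.28 to -0.13). Cyclin A2, the APC/C activator and the centromeric histone differed by less. Ccna2, at 183 and 160 CPM, was at -0.19 (-0.27 to -0.12), and Cdc20, at 167 and 147 CPM, at -0.19 (-0.27 to -0.12). Cenpa, at 495 and 445 CPM, was at -0.15 (-0.20 to -0.11). As a share of the pooled UMIs of Cenpf-positive cells, these 6 were thus also lower in the Usp18+/Δ-labelled library. The exceptions came in Cenpf-positive cells with at most 5% mitochondrial UMIs, 229 and 111 cells. There Ube2c was at 0.065 and Cenpa at 0.055. In those cells 7 members were at or below -0.25, a share near the 16.1% of all genes there.

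Bub1, at -0.16 (-0.30 to -0.02), Kif2c, at -0.14 (-0.27 to -0.02), Pimreg, at -0.13 (-0.23 to -0.04), and Birc5, at -0.12 (-0.17 to -0.07), were lower in Cenpf-positive cells too. For several other members no lower level was found over all Cenpf-positive cells. Top2a was at 711 and 743 CPM, a log2 ratio of 0.06 (0.03 to 0.10). Mki67 was at 933 and 935 CPM, or 0.0032 (-0.03 to 0.03), an interval that leaves little room for a difference at this depth. Plk1, at 115 and 122 CPM, was at 0.08 (-0.01 to 0.17). Aspm was at 189 CPM in both, or -0.0035 (-0.07 to 0.06), although over all cells it was at -0.23 (-0.29 to -0.18). Cenpe was at 267 and 264 CPM, or -0.02 (-0.08 to 0.04), against -0.23 (-0.27 to -0.18) over all cells. In the Cenpf-positive cells with at most 5% mitochondrial UMIs, Cenpe was at -0.32, Mki67 at -0.08, Top2a at 0.05, Plk1 at 0.15 and Aspm at 0.01.

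The members rose with the Cenpf count in both libraries. Cells without a Cenpf UMI held the other members at 2596 and 2415 CPM. With 1 Cenpf UMI they were at 7078 and 6811 CPM, with 2 to 3 at 9402 and 9065 CPM, and with 4 to 7 at 11206 and 10704 CPM. The log2 ratio between libraries was -0.06 (-0.07 to -0.04) at 1 Cenpf UMI, -0.05 (-0.07 to -0.04) at 2 to 3 and -0.07 (-0.09 to -0.04) at 4 to 7. In cells without a Cenpf UMI it was -0.10 (-0.12 to -0.09). Between 8 and 13 Cenpf UMIs there were 8 and 9 cells, too few to compare. Aspm, Ube2c and Plk1 stood out most in Cenpf-positive over Cenpf-negative cells, by log2 ratios of 2.45, 2.31 and 2.30. Ccnb2 did so least, by 0.98.

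Cells chosen without any member gave a like picture, but the reference genes that chose them are G2 and M genes like the members. Those that passed the minimum had median log2 ratios of -0.11 (G2 list) and -0.09 (M list) over all cells. Such a choice in part brings the member levels together by itself, so it is not independent support. In the reference G2/M cells the members summed to 8873 CPM in the Usp18+/f-labelled library and 8514 CPM in the Usp18+/Δ-labelled library, a log2 ratio of -0.06 (-0.07 to -0.05). All 43 reached the minimum there, and 31 had a log2 ratio below 0, beside 48.3% of all genes. Cdkn3, at -0.42 (-0.52 to -0.32), was the only one at or below -0.25, beside 2.08% of all genes. These cells were 35.6% (34.4 to 36.8) of the Usp18+/f-labelled library and 31.3% (30.2 to 32.4) of the other. The late group, nearest mitosis, was 12.5% (11.7 to 13.4) and 9.83% (9.13 to 10.6) of the cells, a log2 ratio of -0.35 (-0.49 to -0.21). The early group was 11.6% (10.8 to 12.4) and 10.7% (9.94 to 11.4), or -0.12 (-0.26 to 0.02).

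Along the whole angle the level of the members was alike at the G2/M bins, and the share of cells was not. In the bin at 85.5 degrees the members were at 9891 and 9883 CPM, and at 106 degrees at 10578 and 10562 CPM. The bin between them, at 96.3 degrees, had 10854 and 10390 CPM. At 125 degrees they were at 8934 CPM in the Usp18+/f-labelled library and 9161 CPM in the Usp18+/Δ-labelled library. That bin held 6.18% of the cells of the Usp18+/f-labelled library and 3.93% of the other, 377 and 264 cells. The bins from 194 to 225 degrees, with both scores low, held more of the Usp18+/Δ-labelled library. There the members were lower in that library, for example at 2981 and 2430 CPM in the bin at 194 degrees. The lower share was not confined to G2/M. The bins at 259, 283, 305 and 324 degrees also held less of the Usp18+/Δ-labelled library, by log2 ratios of share of -0.27, -0.22, -0.27 and -0.23, against -0.27 at 96.3 and -0.65 at 125 degrees.

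**Figure D5:**
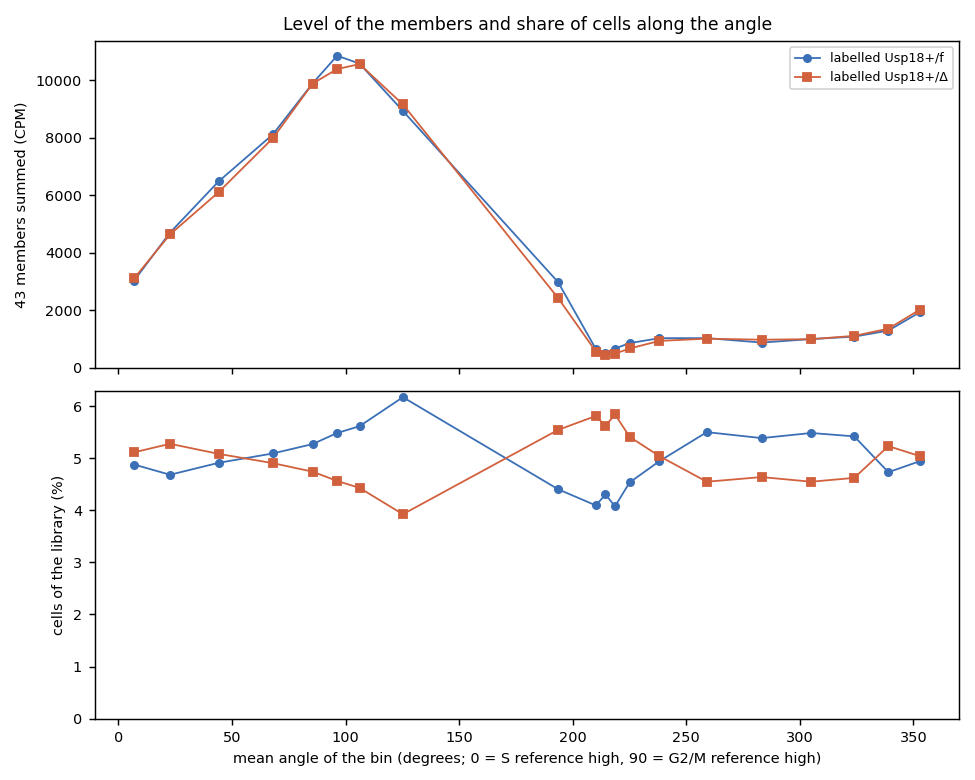
Upper panel, summed level of the 43 members in CPM, and lower panel, share of the library's cells in percent, in 20 bins along the angle, for the Usp18+/f-labelled library (circles) and the Usp18+/Δ-labelled library (squares). The level curves nearly coincide from 44 to 125 degrees, while at 125 degrees the share is 6.18% against 3.93%.

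When each bin of the Usp18+/Δ-labelled library was given the weight it has in the Usp18+/f-labelled library, the log2 ratio of the summed members went from -0.17 to -0.02 in cells of at least 3000 UMIs. With the levels of the Usp18+/f-labelled library and only the bin weights exchanged, it was -0.14. Of the 42 members, 23 were then below 0 and 19 above, beside 47.3% of all genes below 0, and the median was -0.01. None was at or below -0.25, beside 1.32% of all genes. Cdkn3 at -0.21, Ube2c at -0.16, Ccna2 at -0.15, Cdc20 at -0.14 and Cenpa at -0.13 remained the lowest. Plk1 at 0.11 and Kif4 and Tpx2 at 0.09 were highest. This weighting was chosen after the data were seen. The angle is also set by G2 and M genes that vary with the members, so alike levels within bins are in part built in.

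The mitochondrial share of UMIs moved with the difference between libraries. Among cells with at most 5% mitochondrial UMIs, 1015 and 732 cells, the members were at 6242 and 4229 CPM, a log2 ratio of -0.56 (-0.59 to -0.54). All 43 were then at or below -0.25, beside 19.5% of all genes in these cells. Cells over 5% to 7%, 3525 and 4086 cells, gave -0.17 (-0.18 to -0.16). Among cells over 7% to 10%, 2021 and 2255 cells, the members were at 3582 and 3527 CPM, or -0.02 (-0.04 to -0.01), and the median over members was 0.0041. The shares of Cenpf-positive cells followed, at 35.5% and 19.5% of thinned cells with at most 5% and at 20.2% and 19.7% of those over 7%. Within Cenpf-positive cells the log2 ratio of the other members was -0.05 (-0.08 to -0.01) at or below 5% and -0.06 (-0.07 to -0.04) above. Median UMIs also differed, at 4942 and 5261 with at most 5%, 9761 and 8828 over 5% to 7%, and 7512 and 7328 over 7%. The part of mitochondrial share or depth in the difference was not tested.

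Cdkn1a, which encodes the p21 inhibitor of cyclin-dependent kinases, was at 21.8 CPM in the Usp18+/f-labelled library and 62.9 CPM in the Usp18+/Δ-labelled library. In cells with a Cdkn1a UMI after thinning, 361 and 928 cells, the members were at 4609 and 3620 CPM, a log2 ratio of -0.35 (-0.38 to -0.32). In cells without one they were at 4883 and 4440 CPM, or -0.14 (-0.15 to -0.13).

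Other mitotic genes from fixed lists were lower by less. Of 125 genes of kinetochore, spindle, kinase, APC/C, condensin, cohesin and cytokinesis lists, 107 passed the minimum, and their median log2 ratio was -0.07, from -0.35 to 0.36. Of these, 81 were below 0 and 26 above. The 29 passing genes of other kinetochore and checkpoint proteins had a median of -0.10, and 27 were below 0. The 18 condensin and cohesin genes had a median of -0.07. Cks1b and Cks2, small subunits bound to cyclin-dependent kinases, were at -0.35 (-0.38 to -0.32) and -0.30 (-0.32 to -0.28), and Cdk1 itself at -0.32 (-0.36 to -0.27). Others lay above 0: Gtse1, a microtubule-associated protein of G2, was at 0.36 (0.26 to 0.46), Psrc1, a spindle protein, at 0.36 (0.27 to 0.44), and Pttg1 (securin) at 0.24 (0.14 to 0.34). In Cenpf-positive cells the median of the other mitotic genes was -0.0026, with 60 below and 56 above 0. Of 11 listed genes of the FoxM1, B-Myb and MuvB regulators of such genes, 8 passed the minimum. Their median log2 ratio was -0.06, with 5 below 0 and 3 above. Foxm1, below the minimum with a mean of 17.6 CPM, was at 18.7 and 16.6 CPM, a log2 ratio of -0.17 (-0.29 to -0.04). Mybl2 (B-Myb) was at 28.1 and 31.3 CPM, or 0.15 (0.06 to 0.25). The 46 passing S-phase reference genes had a median of -0.02 over all cells. In Cenpf-positive cells their median was 0.07, and 34 of the 44 that passed there were above 0.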

How the data were processed

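Per the labels and the study's methods, the authors made 10x 3′ V3 libraries and processed the reads with Cell Ranger 3.0.2 against mm10. The deposited files hold UMI counts per gene and cell barcode, neither normalized nor scaled, for 7281 and 7833 barcodes. Here, cells were kept if they had 500 or more detected genes and no more than 10% of UMIs from mitochondrial genes. Scrublet's own threshold marked 0.0290% and 0.0405% of cells, under 0.5%, so it was taken not to have worked. Cells with a Scrublet score above the 95th percentile of their library were removed as doublets instead. These were 325 of 6886 and 333 of 7406 cells, somewhat under 5% in each library. Scores and profiles were computed with scanpy 1.11.5, numpy 2.4.6 and scipy 1.17.1.

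The kept libraries held 58184095 and 59440157 UMIs, so 3 UMIs correspond to 0.0516 and 0.0505 CPM. Counts were summed per library and divided by the library's total. Intervals are exact Poisson intervals for levels, exact conditional intervals for log2 ratios, Clopper-Pearson intervals for shares and Katz log intervals for ratios of shares. Counts over genes used those whose mean reached 20 CPM, and a log2 ratio of -0.25 as the fold. Each reference score was the mean of standardized log levels of its genes. The reference lists hold no member. Every member is given with its level. Full levels and log2 ratios are given for Cenpf, the 5 members of highest level, the 5 lowest and 5 highest log2 ratios, the 5 earliest and 5 latest centres, and the 5 lowest and 5 highest indices. The members, lists and thresholds were chosen with earlier results of these data known. The scripts were tested on simulated data. Alternatives varied the cell filters, the doublet removal, the scaling, the averaging, the minimum level, the fold, the Cenpf threshold, the thinning and the reference scores.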

Additional observations from a re-analysis of the deposited data

How the results depend on the processing

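With 1 library per group nothing here was replicated, and no paired analysis was possible because there was a single library in either group. The log2 ratio of the summed members over all cells lay between -0.56 and -0.022 over 9 alternatives. It was -0.17 with only cells of at least 3000 UMIs, -0.33 as a mean of per-cell CPM (median -0.33, 33 members past -0.25) and -0.18 when scaled without mitochondrial, ribosomal protein and haemoglobin genes. That scaling gave -0.05 in Cenpf-positive cells (-0.0472) and in reference G2/M cells (-0.0496). It moved the median of all genes by 0.011.

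The mitochondrial limit moved most results. At 5% the summed ratio was -0.56, the median -0.57, the count past -0.25 was 43 and the ratio of Cenpf-positive shares was -0.86. In Cenpf-positive cells the sum was then at -0.0460 and the count was 7, the median index was 0.28, reference G2/M cells were at -0.0869 and the other mitotic genes at -0.34. In Cenpf-positive cells Cenpa was then at 0.055, Knstrn at 0.16, Ccnb1 at 0.27 and Ube2c at 0.065, and the index of Ndc80 was 0.24. Cells over 7%, a limit chosen after seeing the data, gave -0.022, a median of 0.0041 and 2 members past -0.25, beside 3.81% of all genes. Bins weighted as in the Usp18+/f-labelled library, also chosen after seeing the data, gave -0.022, a median of -0.011 and 0 members. The cause of these shifts was not tested.

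At a log2 ratio of -0.50 the counts were 0 over all cells and 0 in Cenpf-positive cells. With at least 3 Cenpf UMIs the ratio of shares was -0.15 and the sum in Cenpf-positive cells -0.0776. Without thinning that sum was -0.0810, and 2 members were past -0.25, beside 1.97% of all genes. Thinned to 1500 UMIs it was -0.0318, again with 2 members, beside 2.68%. Scores from thinned cells gave a median index of 0.22 and -0.0742 in reference G2/M cells. Cells above the median reference score gave 0.60 and -0.0960, and an index of Mki67 of 0.01. Keeping all barcodes, keeping doublets, median-of-ratios size factors, 10 bins and lower minimum levels moved none of the summary values beyond its counting interval or a count by more than 1.5 times. The span of centres, 42.0 degrees as reported, was 34.4 to 54.4 degrees over 5 alternatives. For the span, a change of less than 13.5 degrees was taken as none. The count of indices above 0, 37 as reported, was 35 to 41. For single members, 60 of 938 alternative values had the other sign, 6 of them for values whose counting interval had been clear of 0. These 6 are the ones given above for Cenpa, Knstrn, Ccnb1, Ube2c, Ndc80 and Mki67. Apart from these 6, 718 stayed within the counting interval of the reported value and 214 moved beyond it.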
